A study of Mus musculus with 3 samples.

Results

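The transcripts described here encode 7 members of the Hedgehog pathway: the ligand Shh, the ligand antagonist Hhip, the receptor Ptch1, the signal transducer Smo and the transcription factors Gli1, Gli2 and Gli3. They were taken by gene symbol from the 28692 genes of the deposited matrices, and all 7 were present. The study profiled whole lung of wild-type C57BL/6 mice at postnatal day 14 by droplet-based single-cell RNA sequencing of transcript 3' ends. The pups breathed room air from day 1 to day 14 of life, and 1 library was made from each of 3 mice, numbered 2, 3 and 4. There was no other condition, so the comparisons below are between the cell types that could send and those that could receive the signal, with the mouse as the replicate.

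Hedgehog ligands are secreted proteins that act on neighbouring cells. Without ligand, the receptor Ptch1 holds Smo inactive and the Gli factors are processed into repressors or kept inactive. Ligand binding to Ptch1 releases Smo, and full-length Gli factors then switch on target genes, among which Ptch1, Hhip and Gli1 are the classic readouts. Ptch1 and Hhip both bind ligand, so their induction limits how far the signal travels. In the developing lung the epithelium is the known source of Shh and the surrounding mesenchyme is the known responder, a division that patterns airway branching and the growth of smooth muscle and myofibroblasts.

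The members lie on 6 chromosomes of the mouse assembly GRCm38 (the build the submitters' processing notes name as mm10; gene spans from GENCODE M21). Shh spans chr5:28456815-28467256 on the minus strand, Hhip chr8:79965851-80058006 (minus), Ptch1 chr13:63508328-63573598 (minus), Smo chr6:29735503-29761365 (plus), Gli1 chr10:127329882-127341974 (minus), Gli2 chr1:118834132-119053619 (minus) and Gli3 chr13:15463235-15730026 (plus). Shh overlaps the opposite-strand transcripts 9530036O11Rik and Gm26894, and Gli1 overlaps the opposite-strand gene Arhgap9, all of which were counted as genes of their own. On the same strand, Ptch1 overlaps A930032L01Rik, Smo overlaps Gm13717 and Gli3 overlaps Gm48343. These same-strand neighbours are not among the genes of the deposited matrices. Whether their reads were counted to a member was not tested. The immune class held 1745 Arhgap9 UMIs and 2 Gli1 UMIs, so the Gli1 counts did not follow those of its neighbour. The 2 transcripts opposite Shh were epithelial like Shh, with 446 and 339 UMIs in the epithelial class against 2 and 3 in the stromal class.

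Hhip and Ptch1 are classic targets whose levels run in opposite order in the 2 myofibroblast-like clusters described below, and the 250 bases before their RefSeq transcription starts (GRCm38.p6) are shown for that reason. Capitals mark every 9-base stretch that comes closest to GACCACCCA, the consensus bound by Gli proteins, on either strand.
Hhip, chr8:80058009-80058258, minus strand: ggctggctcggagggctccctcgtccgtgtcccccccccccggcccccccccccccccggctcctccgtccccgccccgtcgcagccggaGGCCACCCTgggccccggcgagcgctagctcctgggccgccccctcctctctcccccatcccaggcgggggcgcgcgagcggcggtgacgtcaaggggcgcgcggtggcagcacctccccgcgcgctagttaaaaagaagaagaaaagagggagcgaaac
Ptch1, chr13:63565736-63565985, minus strand: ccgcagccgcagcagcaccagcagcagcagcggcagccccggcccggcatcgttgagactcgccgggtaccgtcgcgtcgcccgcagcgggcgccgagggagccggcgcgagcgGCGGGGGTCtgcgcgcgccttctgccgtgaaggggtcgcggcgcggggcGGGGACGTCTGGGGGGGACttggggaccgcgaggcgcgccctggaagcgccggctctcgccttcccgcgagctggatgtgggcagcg
The closest stretch in the Hhip window differed from the motif at 2 positions, and the closest stretches in the Ptch1 window differed at 3. Such distances were common. Of 32851 RefSeq promoter windows, which also hold the 50 bases after the start, 58.3% held a stretch within 2 differences and 99.4% one within 3. The exact motif, read on both strands, was in 83 of them (0.253%) and in none of the 34 windows of genes on the pathway list, of which 5 members (Hhip, Ptch1, Smo, Gli2 and Gli3) had a window. The RefSeq start of Ptch1 lies inside the GENCODE span given above. Both printed windows were rich in G and C (76.0% for Hhip and 78.4% for Ptch1, against a median of 52.7% over all windows).

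The 3 libraries held 9644 barcodes and between 22476491 and 25192427 unique molecular identifiers (UMIs, each counting 1 captured transcript) per mouse. A minimum of 200 genes per cell and a maximum mitochondrial share of 20% left 7642 cells (2386, 2601 and 2655 in mice 2, 3 and 4) at a median of 4853 to 7119 UMIs per mouse. At most 5 barcodes were shared by any pair of libraries. Clustering with the pathway genes left out gave 30 clusters, of which 24 holding 6829 cells were named from marker genes, with 1305 epithelial, 1540 stromal, 962 endothelial and 3022 immune cells. A level is given below as CPM, the UMIs of a gene as counts per 1e6 UMIs of the summed cells of a type, as mean ± SD over the 3 mice, with the values of mice 2, 3 and 4 in that order. Because transcripts were counted from their 3' ends, a level is compared between cell types for 1 gene and not between genes. The kept cells held 949 UMIs of Shh, 4305 of Hhip, 4132 of Ptch1, 2761 of Smo, 380 of Gli1, 276 of Gli2 and 997 of Gli3.

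Shh came from the epithelium and the Gli1, Gli2 and Hhip transcripts from the stroma, with little overlap. Of all Shh UMIs, 98.2% were in epithelial cells, while stromal cells held 98.8% of Hhip, 97.5% of Gli2 and 96.1% of Gli1 UMIs. Ptch1, Smo and Gli3 were spread more widely, with 65.7%, 59.3% and 66.5% of their UMIs in stromal cells and 19.1%, 19.3% and 22% in epithelial cells.

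**Figure D1:**
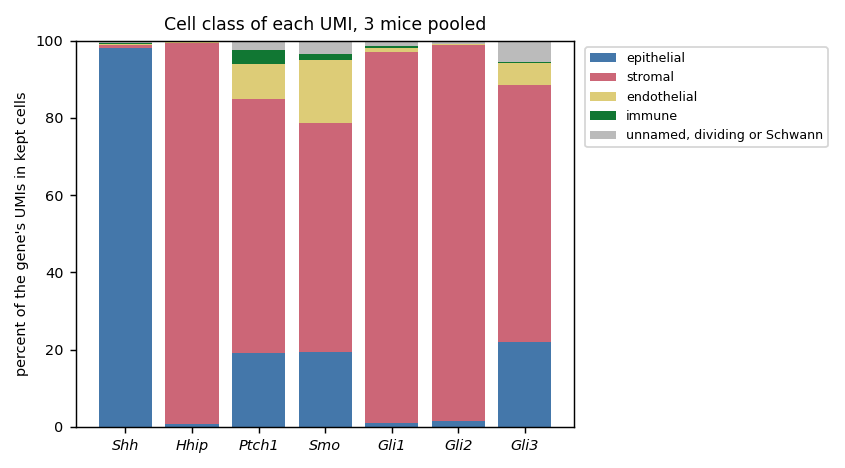
Share of each gene's UMIs (vertical axis, percent of the UMIs in kept cells, 3 mice pooled) by the class of the cell that held them. Shh is almost wholly epithelial (98.2%), Hhip, Gli1 and Gli2 are almost wholly stromal, and Ptch1, Smo and Gli3 are stromal for 59.3% to 66.5% of their UMIs. The classes differ in cell number and depth, so the shares are not levels.

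The class levels were tested on UMIs summed per mouse and class with edgeR's quasi-likelihood test, adjusted over 14199 genes. The SE of an edgeR log2 difference was derived as its absolute value divided by the square root of the F statistic, so it is approximate. Against the epithelial class, 6 of 7 members were higher in stromal cells and 1, Shh, was lower. Classes differ in much of their transcriptome, so these counts stand against 35.9% of all genes tested that were higher and 31.3% that were lower. Without TMM, the scaling that centres most genes, these shares were 53.1% and 21.0%, and the 7 calls did not change. Shh read 44.9, 34.2 and 43.0 CPM in epithelial cells (40.7 ± 5.75) and 0.333, 0.193 and 0.630 CPM in stromal cells, a log2 difference of -6.97 (SE 0.33, edgeR adjusted p = 6.17e-11). Hhip, which binds and sequesters the ligand, read 272, 237 and 219 CPM in stromal and 0.839, 0, and 2.31 CPM in epithelial cells, a log2 difference of 7.26 (SE 0.34, edgeR adjusted p = 4.97e-11). No mouse overlapped between the classes for either gene.

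Ptch1, the ligand receptor, read 153, 153 and 158 CPM in stromal cells (155 ± 3.12), 31.9, 31.7 and 40.5 CPM in epithelial cells (34.7 ± 5.0), 33.4, 41.7 and 42.9 CPM in endothelial cells (39.3 ± 5.19) and 8.44, 11.6 and 10.7 CPM in immune cells (10.2 ± 1.61). The stromal level was above that of the epithelium by 1.77 log2 (SE 0.10) and above that of the endothelium by 2.09 log2 (SE 0.11). Endothelial and epithelial values overlapped for Ptch1. Smo read 93.6 ± 3.69 CPM in stromal, 46.5 ± 4.50 in endothelial, 24.1 ± 1.5 in epithelial and 2.65 ± 1.36 in immune cells. Gli1, the Gli factor whose own transcription depends on the signal, read 20.9 ± 1.79 CPM in stromal cells and at most 0.586 CPM in any mouse of the other 3 classes. Gli2 read 15.4 ± 1.06 CPM in stromal cells and no UMI was seen among 13863167 immune UMIs. With 3 counts as the limit of a count of 0, Gli2 pooled over the 3 mice was at least 70.9-fold higher in stromal than in immune cells. Gli3, best known as the main repressor form, read 37.7 ± 2.00 CPM in stromal cells and 9.93 ± 1.25 CPM in epithelial cells, against 1 UMI in all immune cells.

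Against the endothelial class, 6 members were higher in stromal cells (31.1% of all genes were) and 0 were lower (24.6% of all genes; 0 also at an unadjusted p under 0.05 and with DESeq2). Against the immune class, 6 were again higher (38.9% of all genes) and 0 lower (37.4%; 0 at an unadjusted p under 0.05 and 0 with DESeq2). Shh was the member that passed neither test, having 7, 2 and 3 UMIs in the stromal, endothelial and immune classes. Between epithelium and endothelium, 3 members were higher in epithelial cells (32.6% of all genes, or 21.99% without TMM), namely Shh, Gli3 and Ptch1. Smo was the 1 member that was lower there (33.7% of all genes, or 53.1% without TMM), by a log2 difference of -0.48 (SE 0.12, edgeR adjusted p = 0.0029). The Ptch1 difference was small (0.31, SE 0.12, edgeR adjusted p = 0.0282) and opposite in sign to the CPM levels, which were higher in endothelial cells. Without TMM it was -0.17 on a scale on which the median gene was at -0.53, which places Ptch1 0.36 above the median gene. Ptch1 was no longer called without mouse 2 (0.24) or without mouse 4 (0.27), and Smo no longer without mouse 4 (-0.35). Against immune cells, 4 members were higher in epithelial cells (37.9% of all genes): Shh, Gli3, Smo and Ptch1. None was lower (37.6% of all genes; 0 at an unadjusted p under 0.05 and 0 with DESeq2).

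**Figure D2:**
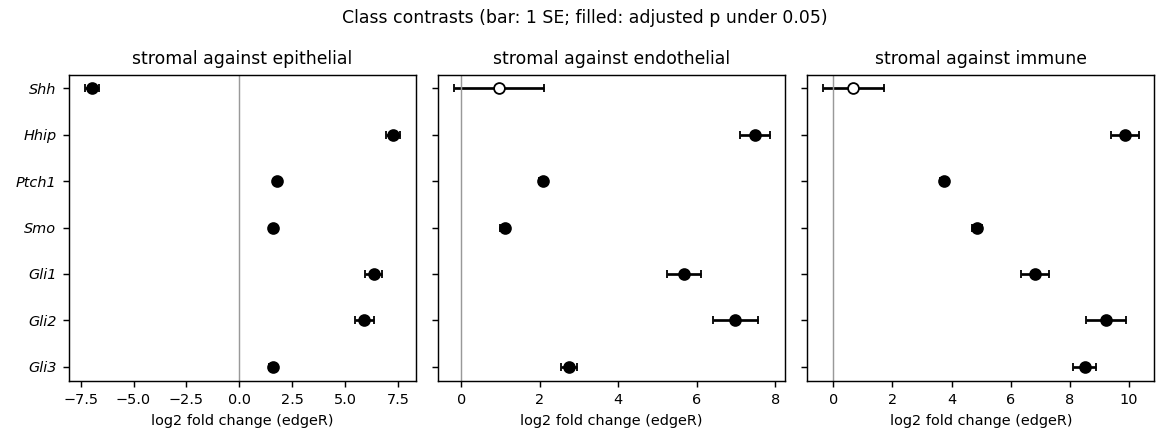
Log2 fold change of each member (horizontal axis, edgeR) between the stromal class and the epithelial, endothelial and immune classes. Bars are 1 SE, derived from the F statistic, and points are filled where the adjusted p was under 0.05. Shh lies at -6.97 against the epithelium and is the only open point in the other panels. Hhip lies furthest to the right in each panel, and where the other class held few or no UMIs the size of the fitted value depends on the prior count.

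Free RNA from lysed cells can leave UMIs in any droplet. It was not measured here, and B cells, which outnumbered every other type, are given as a comparison. The 1783 B-like cells (median 3960 UMIs) held 2 UMIs of Shh, 1 of Hhip, 3 of Smo and 0 of Gli1, Gli2 and Gli3 among 7723412 UMIs. Over the 3 mice together, at most 0.168% of B-like cells (3 cells, for Smo) had a UMI of any of these 6 genes, and a count of 0 allows up to 0.388 CPM. Ptch1 was the exception, with 100 UMIs in 91 B-like cells, at 11.1, 13.3 and 13.9 CPM (12.7 ± 1.49). These limits cover counting error only.

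**Figure D3:**
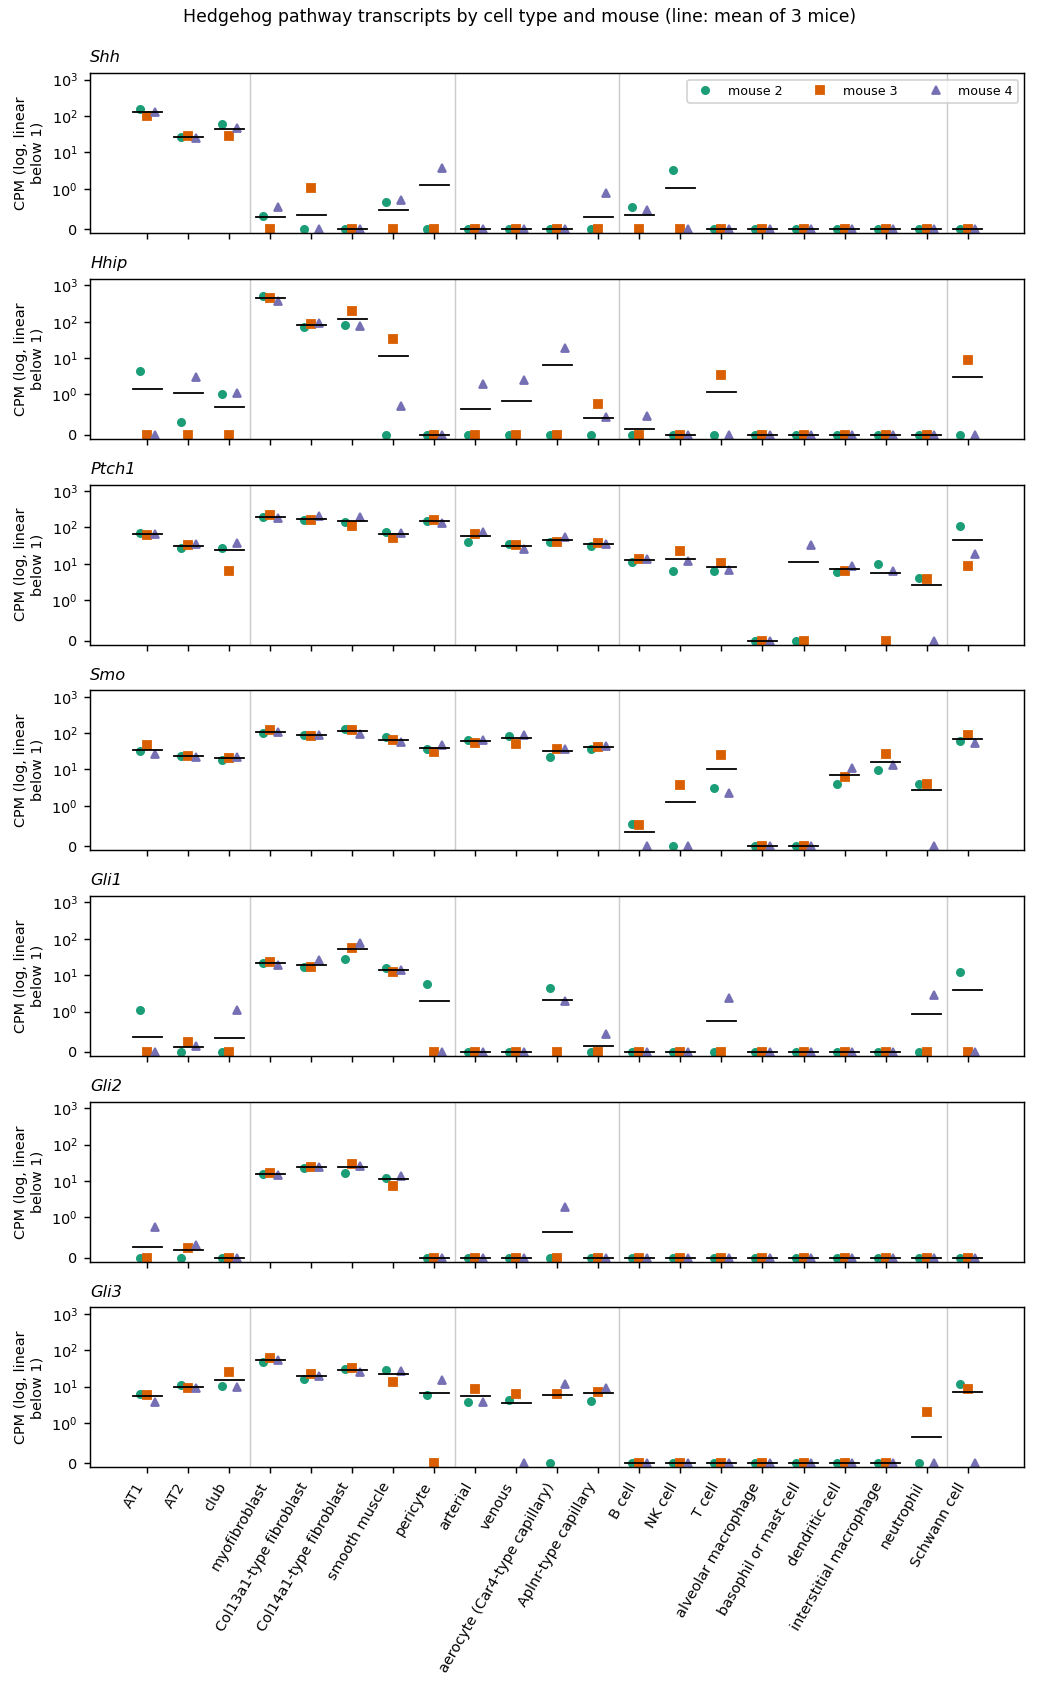
Level of each member (vertical axis, CPM on a log scale that is linear below 1) in 20 named cell types and in Schwann-like cells, 1 point per mouse, with a line at the mean of the 3 mice. Grey lines separate epithelial, stromal, endothelial and immune types and Schwann-like cells. Shh is confined above 10 CPM to the 3 epithelial types, Gli1 and Gli2 are above 10 CPM on average only in 4 of the 5 stromal types, and Ptch1 and Smo are present in epithelial, stromal and endothelial types alike.

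Within the epithelium, the flat type 1 cells of the gas-exchange surface (AT1) had the highest Shh level. AT1-like cells (166 cells) read 154, 98.0 and 131 CPM (128 ± 28.0), club-like airway cells (97 cells) 59.8, 28.9 and 45.9 CPM (44.9 ± 15.5) and surfactant-producing type 2 cells (AT2, 1042 cells) 26.9, 27.4 and 24.5 CPM (26.3 ± 1.59). Every AT1 value was above every club and AT2 value. Club and AT2 values did not overlap either, the lowest club value, 28.9, being close to the highest AT2 value, 27.4. The log2 difference between AT1 and AT2 was 2.04 (SE 0.21, edgeR adjusted p = 6.77e-10 over 12474 genes). By number of transcripts, AT2-like cells held 447, AT1-like cells 365 and club-like cells 120 of the 949 Shh UMIs, although in mouse 4 AT1-like cells held more (173) than AT2-like cells (157). A Shh UMI was found in 55.7% ± 8.88 of AT1-like and 32.6% ± 3.22 of AT2-like cells, at medians of 13461.5 and 16193.5 UMIs per cell. After thinning to 2000 UMIs, among cells with at least that many, the expected shares were 21.5% ± 2.56 and 5.37% ± 0.126.

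The AT1-like cells came from 2 clusters that differed in depth. The larger (129 cells, median 6208 UMIs) read 183, 99.7 and 181 CPM of Shh and the smaller (37 cells, median 35994 UMIs) 118, 96.9 and 98.4 CPM. After thinning to 2000 UMIs both had similar shares of Shh-positive cells, 21.9% ± 3.6 and 20.6% ± 2.39. Without the cluster of 37 cells, a choice made after seeing the data, the AT1 to AT2 difference in Shh was 2.17 log2. The club-like cluster was heterogeneous: 43 of its 97 cells had at least 10000 UMIs and held 97.9% of its UMIs and 116 of its 120 Shh UMIs, and ciliated-cell markers were its runner-up. Among those deep cells, the 33 with more club-marker UMIs read 50.1 CPM of Shh and the 10 with more ciliated-marker UMIs read 15.5 CPM from 4 UMIs.

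Of the 7 members 2 were higher in AT1-like cells, Shh and Ptch1 (16.3% of all genes, or 24.9% without TMM), and 1 was lower, Gli3 (16.8% of all genes, or 9.85% without TMM). Ptch1 read 72.0, 59.99 and 67.5 CPM in AT1-like cells (66.5 ± 6.05) and 26.9, 32.1 and 35.2 CPM in AT2-like cells (31.4 ± 4.19), a log2 difference of 0.84 (SE 0.20, edgeR adjusted p = 6.65e-04). The values of the 2 types did not overlap, and the call was lost without mouse 2 (0.63). Gli3 read 6.45, 6.00 and 3.79 CPM in AT1-like cells and 10.9, 9.38 and 9.35 CPM in AT2-like cells, a log2 difference of -1.20 (SE 0.43, edgeR adjusted p = 0.0269) that rested on 14 UMIs in AT1-like cells and was not called without mouse 2 (-1.36), without mouse 4 (-0.97) or without TMM (-0.94). Gli1 had 1 UMI in AT1-like and 2 in AT2-like cells. Hhip had 4 UMIs in AT1-like cells, all in mouse 2, and 21 in AT2-like cells, 15 of which were in a single cell of mouse 4 with 143074 UMIs that was marked as a doublet.

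Hhip was highest in the myofibroblasts, the contractile cells at the tips of growing alveolar septa, and within them in those with high Aspn. Myofibroblast-like cells (807 cells) read 505, 442 and 360 CPM (436 ± 72.7), above every value of the other types. After log-normalization, another way of clustering, the smooth-muscle-like cells had the highest Hhip level instead (323 CPM against 280.4 CPM in myofibroblast-like cells). The 807 myofibroblast-like cells came from 2 clusters. Among them, the cluster led by Aspn (452 cells) read 773, 833 and 618 CPM (741 ± 111). The cluster led by Pdgfra and Agt (355 cells) read 113, 116 and 69.4 CPM (99.4 ± 26.0). The 2 clusters did not overlap in any mouse, and Hhip was not among the genes used to find them. The Col14a1-type fibroblasts (100 cells) read 79.0, 192 and 78.5 CPM (116 ± 65.2) and the Col13a1-type fibroblasts (210 cells) 73.2, 87.4 and 90.2 CPM (83.6 ± 9.09). These 2 types and the Pdgfra and Agt cluster overlapped and could not be put in order. Pericyte-like cells, which wrap capillaries, held no Hhip UMI among 782259, so that the myofibroblast level was at least 112-fold higher with 3 counts over the group as the limit.

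Smooth-muscle-like cells gave a Hhip level that came from a single cell. The 288 smooth-muscle-like cells read 0, 34.5 and 0.71 CPM, and all 43 UMIs of mouse 3 lay in 1 cell of 24181 UMIs that was not marked as a doublet. Without it, mouse 3 was at 0 as well. A finer clustering (resolution 1.2) moved 30 cells out of the Aspn cluster, 15, 6 and 9 from mice 2, 3 and 4, that expressed contractile genes (Actc1, Cnn1, Actg2 and Des among the 10 leading genes) and that the marker rule then named smooth muscle. These 30 cells read 1738, 3110 and 1424 CPM of Hhip, 348, 337 and 163 CPM of Ptch1 and 47.4, 36.2 and 42.9 CPM of Gli1. They held 754 of the 3431 Hhip UMIs of the Aspn cluster, whose remaining 422 cells read 660, 629 and 566 CPM. Hhip is itself among the leading genes of these cells, so its level there is a description.

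Ptch1 had a different order among stromal types. Among the clusters at resolution 0.8 the Pdgfra and Agt cluster had the highest level, at 254, 261 and 257 CPM (258 ± 3.53). The Aspn cluster read 148, 170 and 116 CPM (145 ± 27.5), again without overlap between mice and opposite to the order of Hhip. The 30 contractile cells within the Aspn cluster read 348, 337 and 163 CPM. They were above the Pdgfra and Agt cluster in mice 2 and 3 and below it in mouse 4. Myofibroblast-like cells as a whole read 191, 220 and 182 CPM (198 ± 19.7), Col13a1-type fibroblasts 164, 161 and 202 CPM (176 ± 22.6), pericyte-like cells 152, 160 and 136 CPM (149 ± 12) and Col14a1-type fibroblasts 139, 107 and 194 CPM (147 ± 43.8). Neighbours in this order overlapped, except that every Col13a1-type value was above every pericyte value. In mouse 4, 28 of the 69 Ptch1 UMIs of the Col14a1-type fibroblasts lay in 1 cell. Smooth-muscle-like cells stood below them at 72.4, 51.4 and 70.0 CPM (64.6 ± 11.5), and overlapped with AT1-like cells and with arterial endothelial cells at 38.8, 64.0 and 72.6 CPM. In Aplnr-type capillary cells Ptch1 read 34.6 ± 3.65 CPM and in aerocytes, the Car4-type capillary cells, 44.3 ± 9.48 CPM.

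Among stromal types, Smo read 127, 124 and 95.4 CPM in Col14a1-type fibroblasts (115 ± 17.4), 99.1, 120 and 108 CPM in myofibroblast-like cells (109 ± 10.6), 87.1 ± 3.63 CPM in Col13a1-type fibroblasts, 66.6 ± 10.7 CPM in smooth-muscle-like cells and 37.3, 30.8 and 47.9 CPM in pericyte-like cells (38.7 ± 8.66). The first 2 overlapped, with the order reversed without mouse 2, and pericytes overlapped with no other stromal type. Venous and arterial endothelial cells read 75.0 ± 20.7 and 60.01 ± 6.12 CPM, and both overlapped with smooth muscle.

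Gli1 was highest in Col14a1-type fibroblasts, at 27.0, 56.6 and 75.7 CPM (53.1 ± 24.5), which overlapped with no other type but had a wide spread between mice. Myofibroblast-like cells read 21.8, 23.0 and 18.5 CPM (21.1 ± 2.30), Col13a1-type fibroblasts 16.3, 17.3 and 25.4 CPM (19.6 ± 4.99) and smooth-muscle-like cells 15.4, 12.04 and 14.3 CPM (13.9 ± 1.72). Pericyte-like cells had 2 Gli1 UMIs, both in mouse 2. Their Ptch1 level therefore stood beside fibroblast levels while Gli1 and Hhip were at or near 0. Gli2 read 22.8, 23.7 and 24.0 CPM in Col13a1-type (23.5 ± 0.62) and 16.6, 28.3 and 25.2 CPM in Col14a1-type fibroblasts (23.4 ± 6.05), 15.4 ± 1.28 CPM in myofibroblast-like and 10.96 ± 3.32 CPM in smooth-muscle-like cells. No Gli2 UMI was found in pericyte-like cells, which places the Col13a1-type level, pooled over the 3 mice, at least 6.14-fold above theirs. Gli3 was led by the myofibroblast-like cells instead, at 48.6, 60.4 and 52.6 CPM (53.8 ± 5.99), followed without overlap by the Col14a1-type fibroblasts at 31.2, 31.4 and 25.2 CPM (29.3 ± 3.50), and then by smooth-muscle-like cells (22.8 ± 7.93) and Col13a1-type fibroblasts (19.2 ± 2.69). Smooth muscle, at 28.2, 13.6 and 26.4 CPM, overlapped with both of its neighbours.

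**Figure D4:**
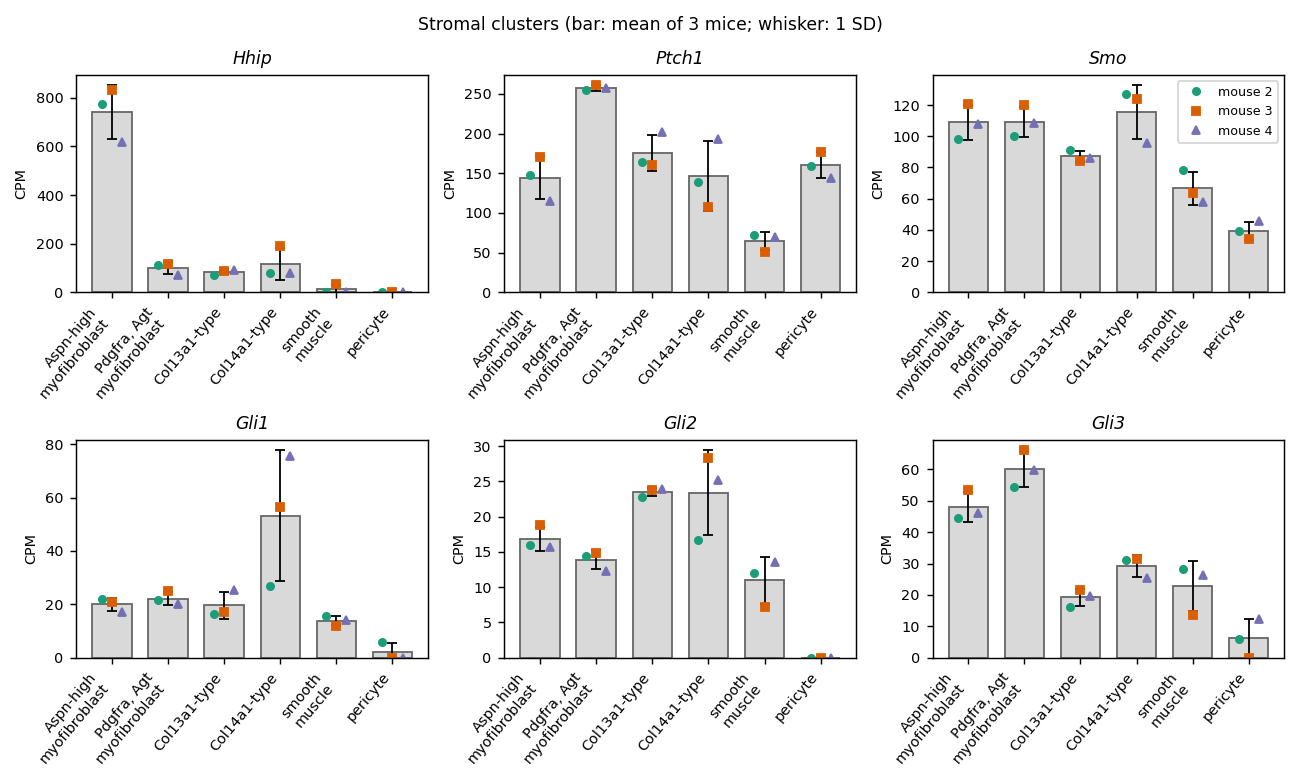
Levels of 6 members (vertical axis, CPM) in 6 stromal clusters. Bars give the mean of 3 mice, whiskers 1 SD and symbols the single mice. Hhip peaks in the Aspn-high myofibroblast-like cluster (741 CPM), Ptch1 in the myofibroblast-like cluster led by Pdgfra and Agt (258 CPM) and Gli1 in the Col14a1-type fibroblasts (53.1 CPM). Pericytes, shown by the larger of their 2 clusters (91 cells), have Ptch1 but no Hhip or Gli2 UMI.

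Each stromal type was compared with the mean of the other 4, taken on the log scale, in 1 edgeR fit over 59 sums of mouse and type. Shh passed in no type. In myofibroblast-like cells 4 members were higher (12.9% of all genes, or 17.4% without TMM): Hhip by 5.20 log2 (SE 0.38), Gli3 by 1.48 (SE 0.21), Ptch1 by 0.57 (SE 0.12) and Smo by 0.50 (SE 0.13), with adjusted p between 6.93e-15 and 0.0025. With DESeq2 Hhip missed the threshold here. This type pools the Aspn cluster, which had the higher Hhip level, and the Pdgfra and Agt cluster, which had the higher Ptch1 level. The Ptch1 level of the Aspn cluster alone was close to those of pericyte-like cells and Col14a1-type fibroblasts. The 2 clusters were not tested apart. In Col14a1-type fibroblasts 4 were higher (15.6% of all genes, or 13.6% without TMM): Hhip by 3.12 (SE 0.68), Gli2 by 2.40 (SE 0.54), Gli1 by 2.33 (SE 0.33) and Smo by 0.84 (SE 0.17). Without mouse 2 the Gli1 difference was 3.69, but pericytes then held no Gli1 UMI, so its size depends on the prior count. Without mouse 3 Gli2 was not called (2.22). In Col13a1-type fibroblasts 3 were higher (15.5% of all genes), namely Hhip by 2.38 (SE 0.80), Gli2 by 2.34 (SE 0.51) and Ptch1 by 0.50 (SE 0.15). Hhip was called in 11 of 17 alternatives: it was lost without mouse 2 (2.25) or mouse 4 (2.11), with the stricter filter on cells, after log-normalization (both 1.36), at resolution 1.2 (1.43) and with DESeq2 (1.73). Ptch1 was not called there without mouse 4 (0.44). The mean that these were set against includes the pericytes with no Hhip or Gli2 UMI, so the size of these Hhip and Gli2 values depends on the prior count. For Hhip in the 2 fibroblast types the direction depends on the log scale too. Their levels of 116 and 83.6 CPM lay below 436 CPM in myofibroblast-like cells. They lay above 11.7 CPM in smooth-muscle-like and 0 CPM in pericyte-like cells. The Hhip and Gli2 calls in both fibroblast types were lost with DESeq2.

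In pericyte-like cells 5 members were lower (11.6% of all genes), namely Hhip, Gli2 (not called with DESeq2), Gli1 by a log2 difference of -3.25 (SE 0.73), Gli3 by -2.02 (SE 0.53; not called without mouse 2, at -1.82) and Smo by -1.34 (SE 0.26), and 0 were higher (12.1% of all genes; 0 at an unadjusted p under 0.05 and with DESeq2). Ptch1 did not pass there, at a log2 difference of 0.03 (SE 0.20). In smooth-muscle-like cells 1 member was lower (10.6% of all genes), Ptch1 by a log2 difference of -1.29 (SE 0.16, edgeR adjusted p = 1.42e-09), and 0 were higher (15.2% of all genes; 0 at an unadjusted p under 0.05 and with DESeq2). Hhip in smooth muscle depended on the clusters: its log2 difference was -1.31 with an SE of 40.1, which gives no direction, but 2.78 at resolution 1.2 and 3.74 after log-normalization, both called, where the contractile Hhip-positive cells described above counted as smooth muscle at resolution 1.2. No member was lower in myofibroblast-like cells (9.49% of all genes), Col13a1-type (10.2%) or Col14a1-type fibroblasts (7.42%), nor at an unadjusted p under 0.05 or with DESeq2.

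The Col14a1-type cluster also held cartilage cells. Of its 100 cells, 16 had more UMIs of the chondrocyte list than of the Col14a1 list, 2, 10 and 4 from mice 2, 3 and 4. These 16 held 0 of the 188 Hhip UMIs and 11 of the 204 Ptch1 UMIs of the cluster, and read 23.4 CPM of Gli1 from 6 UMIs. The remaining 84 cells read 154 CPM of Hhip, 159 CPM of Ptch1 and 57.5 CPM of Gli1. For the other 3 members found there the level of the 16 cells, pooled over mice, was the higher one. Smo read 156 against 110 CPM (40 and 134 UMIs). Gli3 read 42.9 against 27.1 CPM (11 and 33 UMIs) and Gli2 31.2 against 22.2 CPM (8 and 27 UMIs). These differences were not tested, and those of Gli3 and Gli2 rest on few UMIs. Leaving the 16 out, a choice made after seeing the data, left the same number of members called and moved the Gli1 difference from 2.33 to 2.51 log2. Of the 103 UMIs of Ihh, another ligand, which drives growth plate cartilage, 95 lay in 1 of the 16 cells. This cell, from mouse 3, had Col10a1, Mmp13, Col2a1 and Acan among its most abundant transcripts. With 1 such cell, Ihh is not shown to be a trait of the 16.

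Other pathway genes were read from a list of 36, of which 35 were tested between classes and 31 between types. Against the epithelium 23 were higher in stromal cells and 5 lower, against the endothelium 19 and 7, and against immune cells 24 and 4. Over all genes, 35.9% were higher and 31.3% lower against the epithelium, 31.1% and 24.6% against the endothelium and 38.9% and 37.4% against immune cells. The median log2 differences of the listed genes were 0.69, 0.56 and 2.02, against 0.07, 0.06 and 0.02 over all genes. The 4 largest increases against the epithelium were those of Scube3, which helps to release ligand from the producing cell (7.83, SE 0.34), Foxl1 (7.80, SE 0.94), the co-receptor Gas1 (6.97, SE 0.28) and Foxf2 (6.80, SE 0.21). The 4 lower genes with the largest differences were the endocytic receptor Lrp2 (-8.87, SE 0.26), Ccnd1 (-1.71, SE 0.10), Stk36 (-1.03, SE 0.23) and Prkaca (-0.63, SE 0.07). Between epithelium and endothelium 8 were higher and 18 lower (32.6% and 33.7% of all genes), led by Lrp2 (8.57, SE 0.29) and Dhh (-9.40, SE 0.62). Against immune cells 17 were higher in the epithelium and 7 lower (37.9% and 37.6% of all genes), led by Stk36 (8.49, SE 0.62) and Bcl2 (-4.77, SE 0.11).

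Among ligands, Dhh was found outside the epithelium, in Schwann-like cells (27 cells, 210 ± 108 CPM), venous (47.5 ± 5.79 CPM) and arterial endothelium (40.6 ± 10.9 CPM). The Schwann-like values were 335, 149 and 146 CPM, from 53 UMIs in all. Of the release factors, Scube2 was concentrated in Col13a1-type fibroblasts (901 ± 60.3 CPM, 8.31 log2 above the mean of the other stromal types) and Scube3 in smooth-muscle-like cells (180 ± 25.6 CPM, 7.11 log2). The co-receptors Gas1, Boc and Cdon were each highest in Col14a1-type fibroblasts, at 356 ± 36.6, 186 ± 7.12 and 94.0 ± 42.2 CPM. Within that cluster the 16 cartilage cells read 316 CPM of Boc and 46.8 CPM of Gas1, against 158 and 412 CPM in the other 84. Between AT1 and AT2, 8 of 31 listed genes were higher and 4 lower (16.3% and 16.8% of all genes), among them the release factor Scube2 (3.17, SE 0.75) and Lrp2 (-1.81, SE 0.25), whose level in AT2-like cells was 113 ± 11.1 CPM.

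Of the listed targets, Foxf1, a forkhead factor that responds to Shh in lung mesenchyme, was highest in aerocytes (901 ± 46.9 CPM) and Aplnr-type capillary cells (630 ± 17.9 CPM) and read 359 ± 28.7 CPM in pericyte-like cells, in which it was 2.21 log2 (SE 0.18) above the mean of the other stromal types. Foxf2 was highest in pericyte-like (308 ± 44.6 CPM) and myofibroblast-like cells (298 ± 32.9 CPM), which overlapped. Foxl1 was highest, as Gli1 was, in Col14a1-type fibroblasts (25.8 ± 7.22 CPM, 3.07 log2 above the mean of the others). Of the 31 listed genes tested, 11 were higher and 2 lower in myofibroblast-like cells (12.9% and 9.49% of all genes), 8 and 5 in Col14a1-type (15.6% and 7.42%), 7 and 7 in Col13a1-type (15.5% and 10.2%), 4 and 5 in smooth-muscle-like (15.2% and 10.6%) and 5 and 3 in pericyte-like cells (12.1% and 11.6%).

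The genes most like each member over the 59 sums of mouse and type, by Pearson's r of log2(CPM + 10) among 13532 genes, were Slc6a14 (r = 0.989), Cgn (0.976) and Arhgef16 (0.976) for Shh, and Adgrg2 (0.970), Ssc5d (0.959) and Pdgfra (0.955) for Hhip. For Gli1 they were Srpx (0.945), Lrrc17 (0.938) and Olfml1 (0.938), and for Gli2 Dpt (0.975), Srpx (0.974) and Fgf2 (0.969). Smo was nearest to Fkbp9 (0.931), Grb10 (0.927) and Nfia (0.917), and Ptch1 to Efemp2 (0.902), Bace1 (0.897) and Ryk (0.892). Gli3 had the loosest matches, Lrp3 (0.864), Pygo1 (0.854) and Tgfb3 (0.853). Among the members, Gli1 and Gli2 were the closest pair (0.953), while Shh and Hhip were at -0.154. Sums of 1 mouse share a library, and sums of low depth share the value at 0 UMIs, so these coefficients are descriptions.

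Depth limited what single cells showed. Stromal cells had a median of 10526 UMIs, and a UMI of Gli1 was seen in 17.3% ± 2.05 of them, of Gli2 in 15.4% ± 2.02, of Gli3 in 30.9% ± 2.46, of Hhip in 31.8% ± 2.36, of Smo in 59.8% ± 2.88 and of Ptch1 in 61.5% ± 1.11. Thinned to 2000 UMIs, which left out 103 stromal cells, these shares were 4.19% ± 0.515, 3.11% ± 0.371, 7.43% ± 0.326, 19.3% ± 2.07, 17.4% ± 0.75 and 24.4% ± 0.299. Relative to its value before thinning, the share fell least for Hhip, of which a single cell held up to 83 UMIs. At this depth a Gli1-negative cell is not shown to lack Gli1.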

How the data were processed

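Whole-lung cells of 3 mice were measured with 10x 3' chemistry, and the deposited files hold raw UMI counts per gene and cell, which the authors made with Cell Ranger 3.0.2 on mm10 per the labels. The labels give 16000 cells loaded per library. Cells passing a minimum of 200 genes and a maximum mitochondrial share of 20% were normalized with sctransform 0.4.2 and clustered in Seurat 5.3.0 (3000 variable genes without pathway genes, 30 components, resolution 0.8). Clusters were named from marker lists, and the scoring rule was set after the clusters had been seen. Between 46 and 56 cells per mouse, those of highest doublet score in scanpy 1.11.5, were marked as doublets and kept. Their number was set by an assumed rate of 0.8% per 1000 cells. The tool's own threshold would have marked 12, 10 and 19 cells in mice 2, 3 and 4. Sums of UMIs were taken for every mouse in each class (12) or type (59, with at least 10 cells) and fitted with edgeR 4.0.16 (TMM, quasi-likelihood test, Benjamini-Hochberg adjustment, threshold 0.05), with DESeq2 1.42.0 as an alternative. The fits were also run on simulated counts with the same spread for every gene and 200 changed genes. Far more genes differ between the classes here, so that run does not measure the error in these data. Its outcome is not given. Sums of equal mouse number share an animal. Their deviations from the group means had a median correlation of 0.107 between classes (range -0.031 to 0.21 over 18 pairs, 8102 genes) against -0.070 for sums of different mice. Between types the medians were 0.059 and -0.032. Deviations from a mean of 3 mice cancel out, so a positive value for the same mouse goes with a negative one for different mice by construction. Named genes are the 7 members and the 3 genes most like each member. Other pathway genes were taken from the 4 of largest change in each direction of a contrast, not all of which are named. Ihh, and the levels by type of Dhh, Gas1 and Boc, were added after their values were seen. The members and lists were chosen with earlier results of these data known. The promoters of Shh and Gli1 are not shown.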

Additional observations from a re-analysis of the deposited data

How the results depend on the processing

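Of 1274 member fold changes recomputed under the alternatives, 4 changed sign where the reported or the recomputed value was called. Values called in neither also changed sign, such as Hhip between AT1 and AT2 (-4.28 to 3.05). Hhip in smooth-muscle-like cells went from -1.31 (SE 40.1, no direction) to 3.74 after log-normalization and to 2.78 at resolution 1.2, which moved the members called higher or lower there from 1 to 2 in both. Between epithelium and endothelium, Ptch1 reversed to -0.17 without TMM and Hhip to -2.47 when each cell was classed from its own UMIs. DESeq2 gave 11 calls in the 35 tests of a member in 1 of the 5 stromal types. Set against edgeR, it called 1 instead of 3 members in Col13a1-type and 2 instead of 4 in Col14a1-type fibroblasts. It called 3 instead of 4 in myofibroblast-like cells, 4 instead of 5 in pericyte-like cells and, as edgeR did, 1 in smooth-muscle-like cells. The share of all genes that DESeq2 called is not given here. Leaving out each mouse in turn gave 1 to 3 called members for AT1 against AT2, 2 to 4 for epithelium against endothelium and 1 to 3 in Col13a1-type fibroblasts. The shares of all genes called in these fits, after log-normalization and at resolution 1.2 are not given here either. A change in these counts is therefore not told apart from a change in all genes. The cause of these changes was not tested. The fit with the mouse as a replicate block, paired by animal, changed no call: Shh between AT1 and AT2 was 2.01 with the block. Without TMM the median gene moved by up to -0.48 (epithelium against endothelium). Gli1, Gli2 and Gli3 had few UMIs per cell, so their levels are limited by depth.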
